A study of Chenopodium quinoa with 24 samples.

Results

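Aquaporins are membrane channels that let water, and in some members other small neutral molecules, pass through a lipid bilayer. The plasma membrane intrinsic proteins (PIPs) sit in the outer membrane of the cell and fall into the PIP1 and PIP2 groups. PIP2 proteins form efficient water channels on their own, and PIP1 proteins often reach the plasma membrane in mixed tetramers with PIP2 partners. The tonoplast intrinsic proteins (TIPs) sit in the vacuolar membrane and carry the exchange of water between vacuole and cytosol. In leaves, both families contribute to the path of water from the veins to the sites of evaporation.

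The transcripts described here are those of the quinoa leaf table whose best Arabidopsis match is 1 of 18 loci for PIP1, PIP2 or TIP aquaporins. They were chosen by this match alone and number 27 of the 44776 transcripts in the table. The 27 copies matched 9 of the 18 loci: 8 copies were PIP1, 8 were PIP2 and 11 were TIP. PIP1-4 (AT4G00430) and TIP1-3 (AT4G01470, known in Arabidopsis from pollen) had 6 copies each. PIP2-5 (AT3G54820) and TIP4-1 (AT2G25810) had 3 each. PIP1-1 (AT3G61430), PIP2-2 (AT2G37170), PIP2-7 (AT4G35100) and TIP2-1 (AT3G16240) had 2 each, and PIP2-1 (AT3G53420) had 1. No quinoa transcript had 1 of the other 9 loci as its best match, so a copy carries the name of its nearest match only. The protein family labels in the table followed the division by membrane: all 16 PIP copies carried the PANTHER family PTHR45687, and all 11 TIP copies carried PTHR45665.

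The leaves came from quinoa QQ74 (PI 614886), grown with root and shoot at separate temperatures in 4 treatments from first anthesis on. Control plants had both at 22 °C. HR raised the roots alone to 30 °C, HS raised the shoots alone to 35 °C, and HRS raised roots to 30 °C together with shoots to 35 °C. Leaves were taken on day 1 and day 11 of heat from 3 plants per treatment and day, 24 plants in 8 groups. A day here names when leaves were taken and not a full duration of heat. Control and HR shared 1 growth chamber and HS and HRS another, so the chamber cannot be told apart from shoot heating, nor the box of each treatment from the treatment itself. The table holds 6 fits, each of 1 treatment against the control plants of the same day, so the 3 comparisons of a day share their control plants. A level below is a group mean of normalised estimated counts (a geometric mean over 3 plants), and an effect is the natural log of treated over control with its standard error (SE, n = 3 plants per group). Values of single plants were not used here, and the depth per plant cannot be read from the table. In whole leaves, fewer cells of a type and less RNA per cell cannot be told apart.

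Of the 27 copies, 21 had an estimate in all 6 fits and 2 more, the TIP1-3 copies AUR62022517 and AUR62035953, on day 11 alone. The 4 copies with no estimate in any fit were AUR62017190 (PIP1-4), AUR62034183 (PIP2-2), AUR62037664 (PIP2-5) and AUR62041711 (TIP4-1). Tests covered all transcripts with an estimate in a fit, and a transcript was called at an adjusted p under 0.05. Copies of 1 locus may share reads, so the split of counts between near-identical copies is uncertain.

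The leaf identity of the samples was read from marker lists. Root endodermis markers had no copy with an estimate in any fit, and flower organ markers had an estimate for 3 to 5 of their 11 copies. Of the leaf mesophyll markers (small subunit of Rubisco, light-harvesting proteins and carbonic anhydrase), 16 of 17 copies had an estimate. Their summed level in HS on day 11 was 391732, against 1202817 to 1405604 in control. On that day 15 of the 16 were lower in HS than in control, with a median effect of -1.60, while 5 were lower and 1 was higher in HRS, with a median of -0.04. On day 1, 8 were higher and 2 lower in HS, and 5 were higher and 2 lower in HRS. Of all transcripts on day 1, 14.1% were higher in each of HS and HRS, with 12.3% and 12.5% lower. On day 11, 6.09% and 6.08% were higher, and 7.49% and 6.2% lower.

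**Figure D1:**
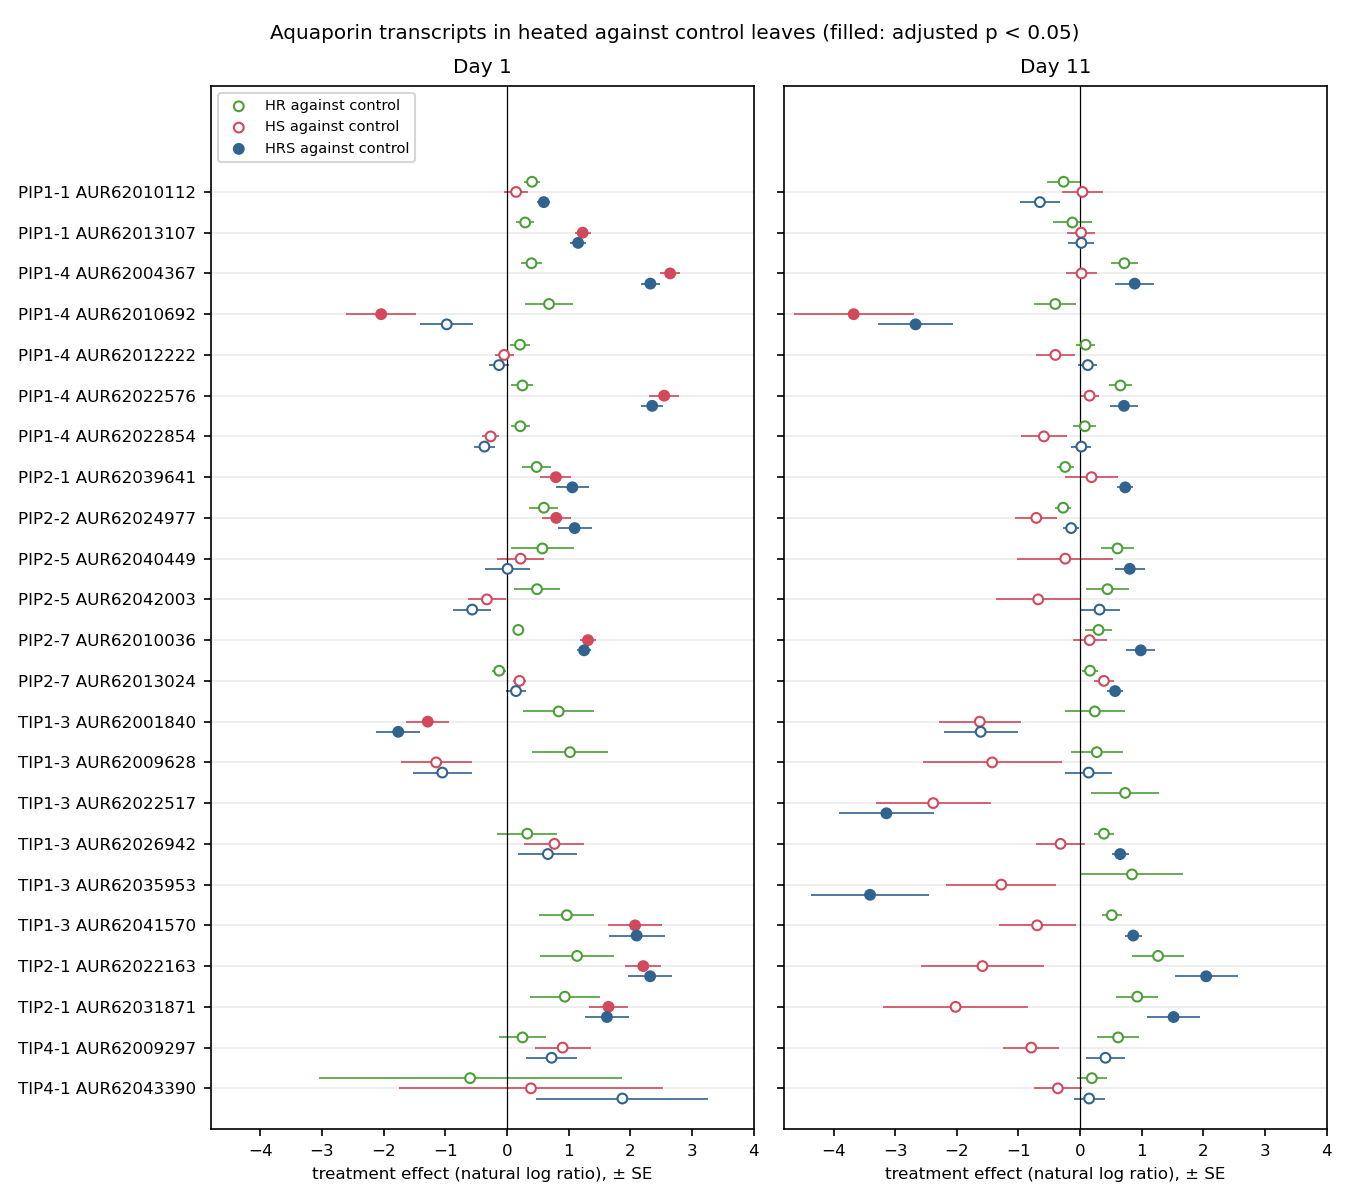
Effect of HR, HS and HRS against control on day 1 and day 11 (x axis, natural log ratio with SE) for the 23 aquaporin copies with an estimate. Filled points passed an adjusted p of 0.05. On day 1 the HS and HRS points lie close together, whereas on day 11 all 10 HS points of the TIP copies lie below 0. Among these 10, AUR62022517 and AUR62035953 stood at only 2.83 and 4.88 in HS.

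The first comparison asked how aquaporin transcripts in leaves differed with shoot heating on day 1. In HS, 9 of 21 copies rose and 2 fell, beside 14.1% of all transcripts higher and 12.3% lower. The median effect was 0.77 (2.16-fold) over the copies and -0.000368 over all transcripts. By family, 3 of 7 PIP1, 3 of 6 PIP2 and 3 of 8 TIP copies rose. The 2 that fell were 1 PIP1-4 and 1 TIP1-3 copy, and the PIP1-4 copy carries a limit given below. In HRS on day 1, 10 of 21 copies rose and 1 fell, with 14.1% of all transcripts higher and 12.5% lower and a median effect of 0.72 over the copies. All 9 copies that rose in HS were among the 10 that rose in HRS. With levels scaled to equal total counts the split in HRS was 10 higher and 4 lower, beside 2904 higher and 6572 lower of all 30341 transcripts. Without the lowest 25% of transcripts by abundance, the copies that fell were no longer tested, and 9 rose in HS and 10 in HRS with 0 lower.

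The PIP1-4 copies, partners of PIP2 channels in the plasma membrane, went different ways. AUR62004367 had a level of 799 in control and 11284 in HS on day 1, an effect of 2.65 ± 0.16 (14.1-fold, adjusted p = 6.04e-61). In HRS its level was 7806 (10.2-fold, adjusted p = 6.52e-46). AUR62022576 stood at 593 in control and 7591 in HS, an effect of 2.55 ± 0.24 (12.8-fold, adjusted p = 1.76e-24), and at 5967 in HRS (10.5-fold). These were the highest effects among the members in HS on day 1. AUR62022854 and AUR62012222, with control levels of 16613 and 10259, had effects of only -0.27 ± 0.14 and -0.05 ± 0.15 in HS and were not called. These copies together held most of the PIP1-4 counts, which are not corrected for transcript length. The level summed over the 5 measured PIP1-4 copies was 1.46 times control in HS, and the share of the copy with the highest level went from 58.7% in control to 30.8%.

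AUR62010692, a PIP1-4 copy at low level, had effects of the other sign. Its level was 39 in control and 5.07 in HS on day 1, 7.70-fold lower (effect -2.04 ± 0.56, adjusted p = 0.00203). This copy may have entered the HS fit through its control plants alone, so the call supports no fall by itself. In HRS the copy stood at 14.01 (effect -0.98 ± 0.43, adjusted p = 0.0772), which did not pass. It was the only member called lower against control on both days of HS, and no member was called in all 4 comparisons of HS and HRS with control. The HS level of AUR62010692 on day 11 was 1.29, with the same limit, given again below.

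Of the PIP1-1 copies, AUR62013107 rose from 105 to 358 in HS (3.42-fold, adjusted p = 1.1e-19) and from 99.96 to 317 in HRS. The second copy, AUR62010112, was at 204 in control and 237 in HS (effect 0.15 ± 0.19, adjusted p = 0.648), but rose from 195 to 354 in HRS (effect 0.60 ± 0.11, adjusted p = 6.44e-07). It was the 1 member called higher in HRS and not in HS on day 1. The difference between the 2 treatments, 0.45 ± 0.22, had an unadjusted p of 0.0422 and an adjusted p of 1.

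Among the PIP2 water channels, PIP2-7 copy AUR62010036 rose from 2413 to 8984 in HS on day 1, an effect of 1.31 ± 0.13 (3.72-fold, adjusted p = 1.22e-23). Its level in HRS was 8044. PIP2-1 (AUR62039641) rose from 733 to 1621 in HS (2.21-fold, adjusted p = 0.00836) and to 2021 in HRS. PIP2-2 copy AUR62024977 rose from 705 to 1568 in HS (2.22-fold, adjusted p = 0.00388) and to 2017 in HRS. The rise of these 3 was larger than the spread between plants, and the remaining PIP2 copies were not called. The second PIP2-7 copy, AUR62013024, had an effect of 0.20 ± 0.11. PIP2-5 copy AUR62042003, which had the lowest PIP2 effect, stood at 3187 in control and 2302 in HS (effect -0.33 ± 0.31, adjusted p = 0.5).

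The tonoplast members of TIP2-1, whose Arabidopsis protein also passes ammonia, were at low level in control leaves of day 1 and rose with shoot heating. AUR62022163 went from 33.4 to 304 in HS (effect 2.21 ± 0.29, 9.12-fold, adjusted p = 8.41e-13) and to 325 in HRS. AUR62031871 went from 37.96 to 197 in HS (effect 1.65 ± 0.32, 5.19-fold, adjusted p = 5.21e-06) and to 183 in HRS. Both copies of this match thus rose in both treatments.

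TIP1-3 copies were divided. AUR62041570 rose from 273 to 2183 in HS, an effect of 2.08 ± 0.43 (7.99-fold, adjusted p = 1.94e-05), and to 2135 in HRS. AUR62001840 fell from 54.2 to 14.99 in HS (3.61-fold lower, adjusted p = 0.0018) and to 8.86 in HRS (5.83-fold lower, adjusted p = 1.01e-05), and was the 1 member called lower in both. AUR62009628 stood at 214 in control and 67.9 in HS (effect -1.15 ± 0.57, adjusted p = 0.132). AUR62026942 stood at 1365 in control and 2948 in HS, an effect of 0.77 ± 0.49 that was not called. The TIP4-1 copies had effects of 0.90 ± 0.45 (AUR62009297) and 0.39 ± 2.14 (AUR62043390) in HS. In the latter the residual SD between plants of a group was 1.71 to 3.01 on day 1, so the SE allowed no call in any direction.

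**Figure D2:**
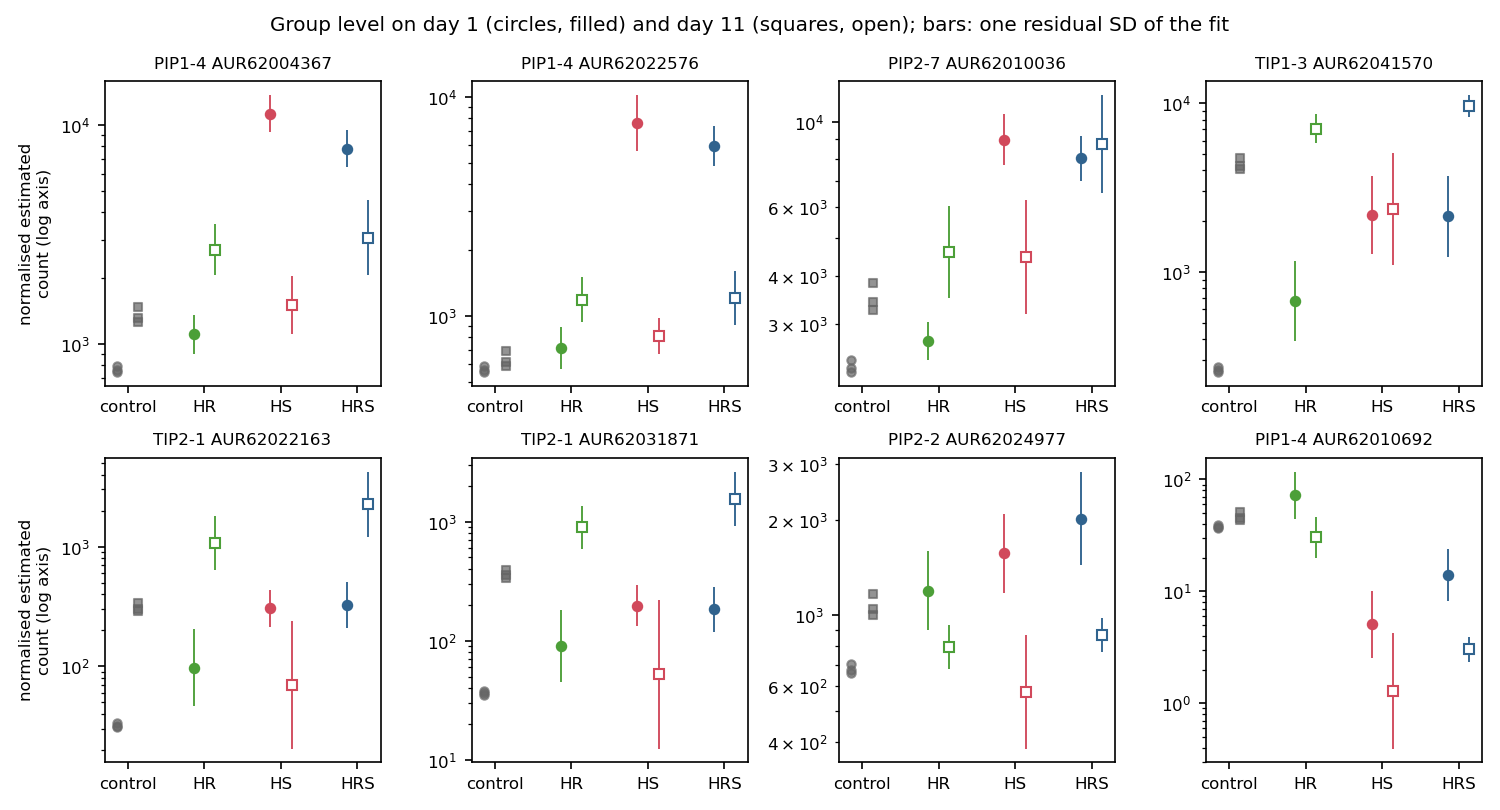
Group levels of 8 copies (y axis, normalised estimated count, log axis) in control, HR, HS and HRS, on day 1 (filled circles) and day 11 (open squares). The 3 grey points of each day are the same control plants as scaled in the 3 fits, and bars are 1 residual SD of a fit. The TIP2-1 copies stood at 69.8 and 52.5 in HS leaves of day 11, and at 2249 and 1544 in HRS leaves.

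Root heating alone was the next question. HR gave no called aquaporin on either day, beside 0.567% of all transcripts called on day 1 and 0.879% on day 11. On day 1, 19 of 21 copies had an effect above 0, with a median of 0.41 (1.502-fold) beside 0.003472 over all transcripts, and 5 had an unadjusted p under 0.05. The moderated test of limma also called 0 and put 7 below that unadjusted limit. The mesophyll markers had a median effect of 0.36 in HR on that day, with 0 of 16 called, and of 0.50 on day 11, with 2 called higher. Their part in the aquaporin values was not tested. On day 11, 18 of 23 copies had an effect above 0, with a median of 0.30. By the Wald test 8 had an unadjusted p under 0.05, 7 of them higher, and limma called 0, with 8 under that limit. The highest effects in HR were those of TIP2-1 copy AUR62022163, whose level was 31.2 in control and 97.2 in HR on day 1 (effect 1.14 ± 0.60) and 303 and 1075 on day 11 (1.26 ± 0.43, adjusted p = 0.146). When p-values were adjusted over all 6 comparisons together, 1 copy was called higher in HR on day 1, PIP1-1 AUR62010112 with an effect of 0.41 ± 0.12. Over all 30320 transcripts this setting called 439 higher and 281 lower, beside 108 and 64 in the main test. On day 11, 5 were called, beside 471 higher and 484 lower of all 30588 transcripts (104 and 165 in the main test). They were AUR62004367 and AUR62022576 of PIP1-4, AUR62041570 of TIP1-3 and both TIP2-1 copies. These 5 had effects between 0.51 and 1.26 on day 11.

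On day 11 the aquaporins of HS leaves no longer stood above control. In HS on day 11, 0 of 23 copies were called higher and 1 lower, beside 6.09% of all transcripts higher and 7.49% lower, and 5 copies had an unadjusted p under 0.05. limma gave the same numbers, 0 higher and 1 lower. The median effect over the copies was -0.59, and -0.00067 over all transcripts. All 10 TIP copies had effects below 0, and none passed the test. Their median of -1.35 (a ratio of 0.259 to control) includes 2 copies that carry a limit. AUR62022517 and AUR62035953, with estimates on day 11 alone, stood at 2.83 and 4.88 in HS, and at 30.7 and 17.5 in control. They may have entered this fit through their control plants alone, so their sign supports nothing. The 8 TIP copies with all estimates also lay below 0, with effects from -2.02 to -0.32. Scaling to equal total counts moved every effect of this comparison up by 0.24, and the median over the copies was then -0.35. With this scaling 2 copies were called higher and 1 lower, beside 6630 higher and 1148 lower of all 30731 transcripts.

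The called copy was again PIP1-4 AUR62010692, with a level of 50.97 in control and 1.29 in HS (effect -3.67 ± 0.97, adjusted p = 0.00321). This copy may have entered the fit through its control plants alone, so its call supports no fall by itself. Its 95% interval ran from a ratio of 0.00378 to one of 0.171, and this copy was left out when the lowest 25% of transcripts by abundance were dropped, which left 0 calls. The PIP1-4 copies that had risen most on day 1 had effects near 0: AUR62004367 stood at 1478 in control and 1512 in HS (effect 0.02 ± 0.25), and AUR62022576 at 690 and 805 (0.15 ± 0.16). TIP2-1 copy AUR62022163 stood at 340 in control and 69.8 in HS, an effect of -1.58 ± 1.00 (adjusted p = 0.302), and AUR62031871 at 396 and 52.5 (-2.02 ± 1.17, adjusted p = 0.255). The HS plants of this day varied more than the HR and HRS plants in most copies. The residual SD of the HS fit was larger than that of the HRS fit in 20 of 23 copies and than that of the HR fit in 21 of 23. Its median was 0.522 over the copies, beside 0.321 in HR and 0.298 in HRS, and the medians over all transcripts were 0.239, 0.215 and 0.240. The mesophyll markers were lower in these same plants (15 of 16, as given above), and their part in the aquaporin values was not tested.

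In HRS leaves of day 11, by contrast with control, 10 of 23 copies rose and 3 fell, beside 6.08% of all transcripts higher and 6.2% lower. The median effect was 0.32 over the copies and -0.02 over all transcripts. The copies that rose were 2 of 7 PIP1, 4 of 6 PIP2 and 4 of 10 TIP. Of the 10, 7 had also risen in HRS on day 1. limma, which allows for the few plants behind each SE, called 7 higher and 2 lower. It lost PIP1-4 copies AUR62004367 (adjusted p = 0.0716) and AUR62022576 (0.0637), PIP2-5 copy AUR62040449 (0.052) and TIP1-3 copy AUR62035953 (0.054).

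The TIP2-1 copies gave the highest effects in HRS on day 11. AUR62022163 rose from 291 in control to 2249 (effect 2.04 ± 0.51, 7.73-fold, adjusted p = 0.00158), and AUR62031871 from 339 to 1544 (effect 1.52 ± 0.43, 4.56-fold, adjusted p = 0.00666). PIP2-7 copy AUR62010036 rose from 3267 to 8744 (effect 0.98 ± 0.24, 2.68-fold, adjusted p = 0.000894). These rises were larger than the spread between plants in both tests.

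Other copies rose by about 1.8 to 2.4-fold. PIP1-4 AUR62004367 rose from 1265 to 3067 (2.42-fold, adjusted p = 0.0466) and AUR62022576 from 591 to 1204 (2.04-fold, adjusted p = 0.0224), far less than on day 1. TIP1-3 AUR62041570 rose from 4058 to 9617 (2.37-fold, adjusted p = 7.91e-08) and AUR62026942 from 5323 to 10196 (1.92-fold, adjusted p = 0.000135). The remaining rises, in PIP2-1, PIP2-5 copy AUR62040449 and PIP2-7 copy AUR62013024, were 2.08-fold, 2.24-fold and 1.76-fold.

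The 3 copies that fell in HRS on day 11 were all at low level. AUR62010692 (PIP1-4) went from 43.7 to 3.03 (effect -2.67 ± 0.60, 14.4-fold lower, adjusted p = 0.000365). AUR62022517 (TIP1-3) went from 26.3 to 1.14 (effect -3.14 ± 0.77, adjusted p = 0.00125), with a 95% interval of its ratio from 0.00949 to 0.197. A level under 3 counts, as here and for AUR62010692 in HS on day 11, leaves the size of the effect dependent on the offset of 0.5 added to each count. AUR62035953 (TIP1-3) had 15.1 in control and stood at 0.5 in HRS, the lowest value any group of the table takes. Against a floor of 3 counts per plant in HRS, its control level was 4.86-fold higher, a value that carries no sampling error. This copy was at 0 in the HRS plants and entered the fit through its control plants alone, so its call supports nothing. AUR62010692 and AUR62022517, at 3.03 and 1.14 in HRS, may have entered the fit in the same way. Their calls are given as values and support no fall either. All 3 were among the transcripts left out when the lowest 25% by abundance were dropped.

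**Figure D3:**
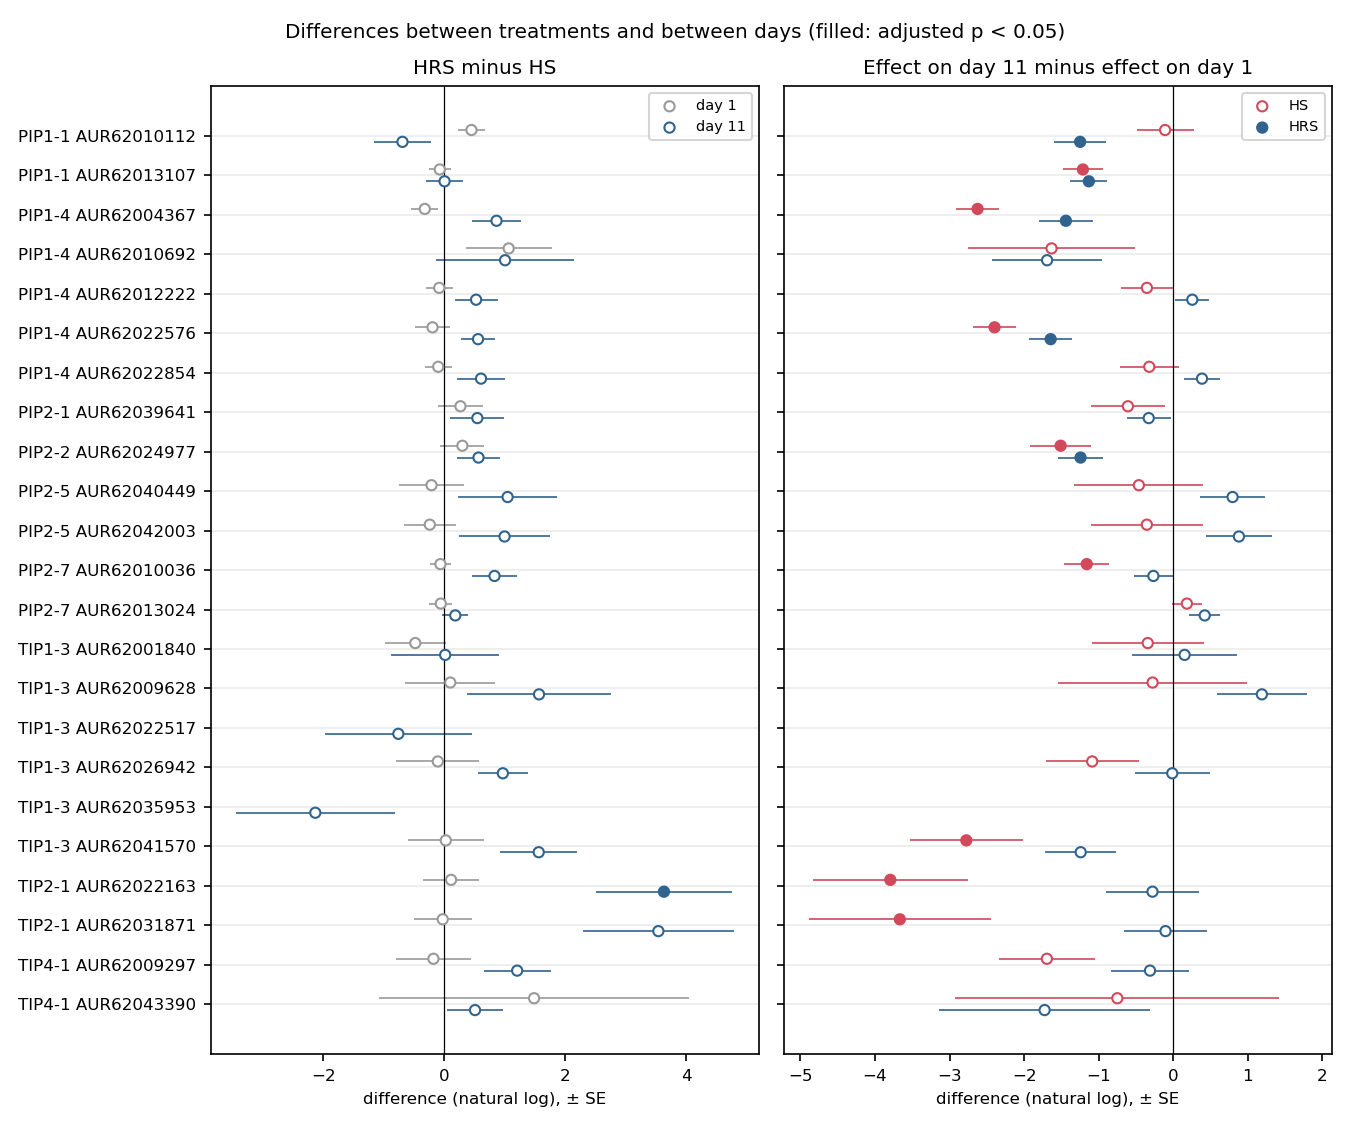
Left, effect of HRS minus effect of HS on day 1 and day 11, and right, effect on day 11 minus effect on day 1 for HS and HRS (x axes, natural log with SE), with filled points at an adjusted p under 0.05. In HRS minus HS, 1 copy passed on day 11, and in the comparison of days 8 copies passed in HS and 5 in HRS, all below 0.

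The next comparison asked whether warm roots changed the effect of hot shoots. The difference was taken between the effects of HRS and HS. Both effects contain the same control plants and their SEs were combined as if they did not, so this SE is larger than the difference itself needs. On day 1, 0 of 21 copies differed, beside 0.0534% of all transcripts. The median difference was -0.06, 1 copy (AUR62010112) had an unadjusted p under 0.05, and limma called 0 with 1 such copy. For the PIP1-4 copy AUR62004367 the difference was -0.32, with a 95% interval from -0.76 to 0.12, and for TIP2-1 AUR62022163 it was 0.11, from -0.79 to 1.02.

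On day 11, 1 of 23 copies was called higher in HRS than in HS, beside 3.87% of all transcripts called in either direction. It was TIP2-1 AUR62022163, with a difference of 3.63 ± 1.12 (37.6-fold, 95% interval 1.43 to 5.83 on the natural log scale, adjusted p = 0.038). limma gave this copy an adjusted p of 0.116 and called no transcript of the table in this comparison (0 of 29947). The second TIP2-1 copy, AUR62031871, had a difference of 3.54 ± 1.25 (adjusted p = 0.0854). In 20 of 23 copies the difference was above 0, with a median of 0.61 beside -0.04 over all transcripts, and 8 had an unadjusted p under 0.05, all higher in HRS. Under scaling to equal total counts the median was 0.35 and 17 of 23 were above 0. The mesophyll markers differed between the same groups, with 12 of 16 higher in HRS than in HS and a median difference of 1.70, and their part in the aquaporin values was not tested.

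**Figure D4:**
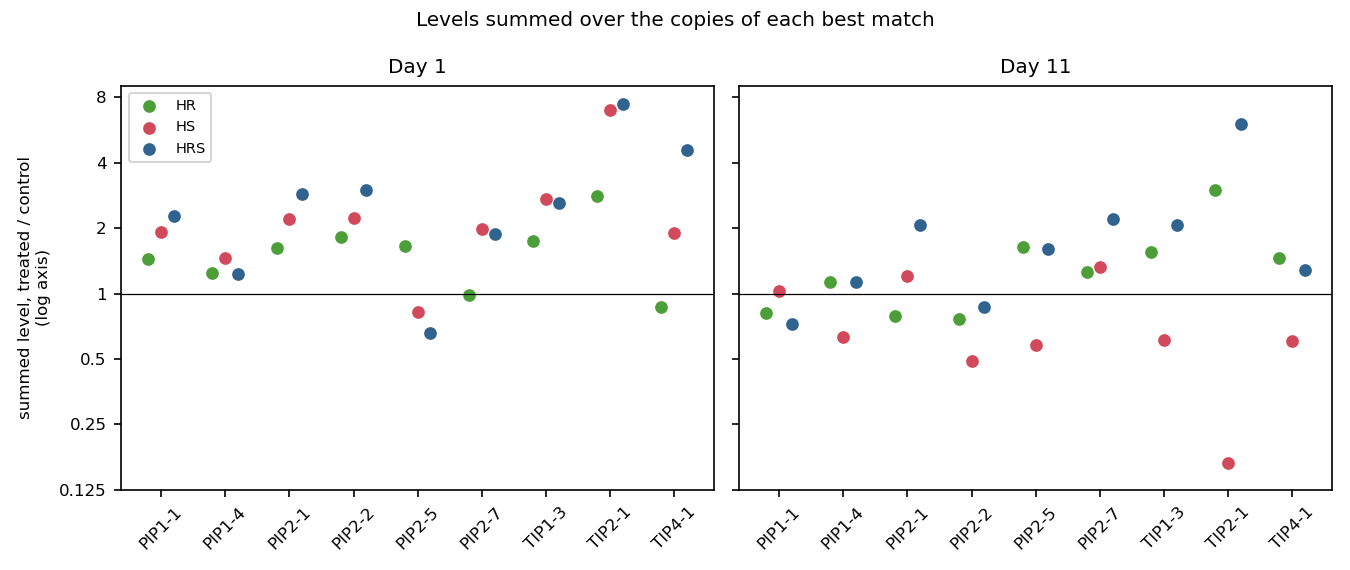
Ratio of the level summed over the measured copies of each best match in treated to control leaves (y axis, log axis), for HR, HS and HRS on day 1 and day 11. For TIP2-1 the day 1 ratio was 7.03 in HS and 7.47 in HRS, and the day 11 ratio was 0.166 in HS and 6.02 in HRS.

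Summed over the 21 copies with all estimates, the families kept the same picture, given here as a description with no test. The 8 TIP copies stood at 2.84 times control in HS and 2.87 times in HRS on day 1, and at 0.584 and 2.27 times on day 11. The 6 PIP2 copies stood at 1.67 and 1.63 times control on day 1, and at 0.973 and 1.86 times on day 11. The 7 PIP1 copies, most of whose counts came from the PIP1-4 copies AUR62022854 and AUR62012222, stood at 1.47 and 1.25 times on day 1, and at 0.634 and 1.13 times on day 11. In HR, where no copy was called, the TIP, PIP2 and PIP1 sums stood at 1.75, 1.26 and 1.25 times control on day 1. On day 11 these HR ratios were 1.63, 1.35 and 1.13. TIP2-1 had the widest range among the best matches, as the plot of summed ratios shows.

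The last comparison asked whether the effect of a treatment differed between day 11 and day 1. For HS, 8 of 21 copies were called, all with a lower effect on day 11, beside 14.5% of all transcripts called in either direction. limma also called 8. The median change of effect was -1.09 over the copies and -0.00426 over all transcripts. They were PIP1-1 AUR62013107, PIP1-4 AUR62004367 and AUR62022576, PIP2-2 AUR62024977, PIP2-7 AUR62010036, TIP1-3 AUR62041570 and both TIP2-1 copies. The largest changes were those of TIP2-1, -3.79 ± 1.04 (AUR62022163, adjusted p = 0.00397) and -3.67 ± 1.22 (AUR62031871, adjusted p = 0.0236). The smallest p was that of PIP1-4 AUR62004367, -2.62 ± 0.29 (adjusted p = 2.63e-16). Control levels also differed between the days, so a lower effect need not be a lower level in HS leaves. TIP1-3 AUR62041570 stood at 2183 on day 1 and 2362 on day 11 in HS, and at 273 and 4742 in control. PIP1-4 AUR62004367 stood at 11284 and 1512 in HS, and at 799 and 1478 in control. TIP2-1 AUR62022163 stood at 304 and 69.8 in HS, and at 33.4 and 340 in control. With equal total counts, which moved each change up by 0.42, 8 copies were lower and 1 higher. Over all 29715 transcripts 1263 were then lower and 8579 higher. Between the same groups 15 of 16 mesophyll markers had a lower effect on day 11, with a median change of -2.27, and their part in the aquaporin values was not tested.

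For HRS, 5 of 21 copies were called, all with a lower effect on day 11, beside 6.82% of all transcripts, and limma called 5. They were both PIP1-1 copies, PIP1-4 AUR62004367 and AUR62022576, and PIP2-2 AUR62024977. PIP1-4 AUR62022576 had the largest change among them, -1.64 ± 0.29 (adjusted p = 1.78e-06). No TIP copy passed: the change for TIP2-1 AUR62022163 was -0.28 ± 0.63, with a 95% interval from -1.51 to 0.95. Of the mesophyll markers, 4 of 16 were called lower and 1 higher in this comparison, with a median change of -0.51, and their part was not tested. Whether the change between days differed between HS and HRS was not tested. For HR, 0 of 21 copies were called beside 0.0204% of all transcripts, with 4 at an unadjusted p under 0.05, and limma called 0, with 4 such copies.

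Other aquaporin subfamilies were read from the same fits. The nodulin 26-like intrinsic proteins (NIPs), which in plants pass boric acid and other small solutes, had an estimate for 7 or 8 of 19 copies. None of them was called higher in any treatment. A different copy fell in each of 3 comparisons, each time 1 of 7 with an estimate. NIP5-1 AUR62003217 fell in HRS on day 1 (adjusted p = 0.00333), beside 12.5% of all transcripts lower. NIP4-2 AUR62039803 fell in HS on day 11 (adjusted p = 0.00947), beside 7.49% lower. NIP5-1 AUR62008039 fell in HRS on day 11 (adjusted p = 4.11e-05), beside 6.2% lower. Rises made up 14.1% of all transcripts for either shoot-heated group of day 1, and 6.09% (HS) and 6.08% (HRS) of day 11. Whether these 7 or 8 copies depart from such shares was not tested. The small basic intrinsic proteins (SIPs) of the endoplasmic reticulum had 1 copy higher in HS on day 1 and 1 in each of HS and HRS on day 11, of 5 or 6 with an estimate, beside 14.1% of all transcripts higher in HS on day 1 and 6.09% and 6.08% on day 11. SIP2-1 copy AUR62020989 rose from 59.7 to 180 in HRS on day 11 (3.02-fold, adjusted p = 4.04e-07). The 6 copies of the seed and other TIPs had no estimate in any fit.

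Proteins that act on PIPs in Arabidopsis were examined as a list of 7 loci with 17 copies. It covers syntaxins of PIP delivery (SYP121, SYP61), the kinases OST1 and CPK7, and TSPO, RMA1 and UBC32, which take part in PIP turnover. In HS on day 1, 2 of 17 copies rose and 6 fell, and in HRS 1 of 16 rose and 4 fell, beside 14.1% of all transcripts higher in either treatment and 12.3% and 12.5% lower. Both copies of RMA1, a ubiquitin ligase of the endoplasmic reticulum that holds back PIP2-1, rose in HS: AUR62042486 went from 66.4 to 157 (2.37-fold, adjusted p = 0.000103) and AUR62034284 from 62.3 to 102 (1.63-fold, adjusted p = 0.0293). In HRS, AUR62042486 also rose (adjusted p = 0.00157) and AUR62034284 was not called (adjusted p = 0.467). UBC32 copy AUR62016122 fell in HS (0.657 of control, adjusted p = 2.24e-05), as did both CPK7 copies (0.684 and 0.693) and SYP61 copy AUR62037629 (0.709). The second UBC32 and SYP61 copies were not called. The same UBC32 copy and both CPK7 copies fell in HRS too. SYP121 copy AUR62036358 fell from 79.7 to 14.6 (effect -1.70 ± 0.31, adjusted p = 5.24e-07). The second SYP121 copy, AUR62030715, was also called lower, from 21.9 to 1.60 (effect -2.61 ± 0.70, adjusted p = 0.0015). AUR62030715 stood under 3 counts in HS, so the size of its effect is uncertain. It may have entered the fit through its control plants alone, so its call supports no fall by itself. On day 11, 3 of 14 copies were called lower in HS and 1 in HRS, beside 7.49% and 6.2% of all transcripts lower. The 3 include SYP121 copy AUR62030715, at 2.23 in HS with the same limit. limma gave these calls adjusted p from 0.0532 to 0.103, so none passed. HR had no call in this list on either day.

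The proton pumps of plasma membrane and tonoplast, which energise the membranes that hold these channels, had 27 copies. In HS on day 1, 2 of 22 rose and 6 fell, with a median effect of -0.06, and in HRS 2 of 21 rose and 5 fell, with a median of -0.22, beside the same shares of all transcripts. The pair that rose in both were the copies of AHA4, a plasma membrane proton pump. AUR62038881 went from 68.7 to 7397 in HS (108-fold, adjusted p = 8.93e-69) and AUR62031647 from 10.5 to 1400 (133-fold, adjusted p = 6.97e-69). The level summed over the 20 pump copies with all estimates was 25865 in control and 30239 in HS, with 24677 and 27901 in the HRS fit. On day 11, 4 of 22 rose and 1 fell in HS, and 2 rose and 2 fell in HRS. Of all transcripts on that day, 6.09% were higher and 7.49% lower in HS, and 6.08% and 6.2% in HRS. The phloem and bundle markers had 0 calls in HS on day 1 among 9 copies and 2 lower of 8 in HRS. Guard cell markers had 4 higher and 1 lower of 13 in HS, and 1 higher in HRS, on day 1. Of all transcripts on day 1, 14.1% were higher in each treatment, with 12.3% lower in HS and 12.5% in HRS. Neither list had a call against control on day 11.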

How the data were processed

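The authors made a strand-specific library from the leaf of each of 24 quinoa plants, assigned the reads to the quinoa transcriptome with kallisto and used sleuth 0.30.0 to fit each treatment against the control of the same day. The deposited table gives per transcript and fit an effect and a mean abundance in natural log units of normalised estimated counts (with an offset of 0.5), and other deposited columns hold the SE and variance terms. The deposited p and q columns were not used, and the table has 0 columns with values of single plants. Of the transcript identifiers, 0 matched the reference gene table, so no sequence or position is shown.

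The effect columns are the authors' own fitted comparisons. They were used because they are the measurement in this table, and every test and adjustment was computed anew. Each effect was divided by its SE (Wald z test, two-sided) and p-values were adjusted by Benjamini-Hochberg over all transcripts of a fit. Differences between fits used the sum of squared SEs. The z test takes the SE as known although a fit has 4 residual degrees of freedom. limma 3.58.1 (R 4.3.3), which moderates the variance, was the alternative. A group level is the mean abundance plus or minus 0.5 times the effect, taken out of the log. Computation used Python 3.11.15. The tests were run on simulated normal values with separate control plants for each fit. Shared control plants and counts near 0 were not simulated, and no conclusion is drawn from the simulation.

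Members described singly were the 4 highest and 4 lowest effects in HS on day 1, the 3 highest and 3 lowest in HRS on day 11, and those called in HR, in HRS against HS, between days, or in all 4 comparisons of HS and HRS; others are named after their values were seen. Marker and gene lists were read by best Arabidopsis match. The members and lists were chosen with earlier results of these data known. Each plant was 1 replicate.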

Additional observations from a re-analysis of the deposited data

Results flagged for a closer look

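Each result here is a copy whose effect differed between treatments or between days by the test of the difference itself. Between HRS and HS on day 11 this held for TIP2-1 AUR62022163, with a difference of 3.63 on the natural log scale. The limma test did not call this copy (adjusted p = 0.116).

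In HS the effect on day 11 was lower than on day 1 in 8 copies. The difference was -1.21 for PIP1-1 AUR62013107, and -2.62 and -2.40 for PIP1-4 AUR62004367 and AUR62022576. For PIP2-2 AUR62024977 it was -1.51 and for PIP2-7 AUR62010036 it was -1.16. For the tonoplast copies it was -2.775 (TIP1-3 AUR62041570), -3.79 (TIP2-1 AUR62022163) and -3.67 (TIP2-1 AUR62031871). Between the same groups 15 of 16 mesophyll markers were lower, with a median of -2.27. In HRS the same test was passed by 5 copies, with 4 of 16 mesophyll markers lower and 1 higher. The difference was -1.25 and -1.13 for PIP1-1 AUR62010112 and AUR62013107, -1.44 and -1.64 for PIP1-4 AUR62004367 and AUR62022576, and -1.24 for PIP2-2 AUR62024977. The copies PIP1-1 AUR62013107, PIP1-4 AUR62004367 and AUR62022576 and PIP2-2 AUR62024977 thus passed in both treatments. The plants of day 1 and day 11 were different plants and were fitted apart. Control levels differed between the days, so a lower effect need not be a lower level in heated leaves. In HS, TIP1-3 AUR62041570 stood at 2183 on day 1 and 2362 on day 11, while its control stood at 273 and 4742. PIP1-4 AUR62004367 stood at 11284 and 1512 in HS.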

How the results depend on the processing

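No paired analysis was possible because plant numbers differ between groups and the table holds no plant values, and for the same reason no plant could be left out in turn. Counts of called copies that moved by over 1.5 times were these. HR on day 1 went from 0 to 1 and HR on day 11 from 0 to 5 when p-values were adjusted over all 6 comparisons together. Over all transcripts, higher calls in HR then went from 108 to 439 on day 1 and from 104 to 471 on day 11. HS on day 11 went from 1 to 0 without the lowest 25% of transcripts by abundance and to 3 with equal total counts. Over all transcripts, equal totals gave 6630 higher and 1148 lower in HS on day 11. HRS against HS on day 11 went from 1 to 0 with limma and at an adjusted p under 0.01. The other counts, taken over both directions, stayed within 1.5 times under limma, an adjusted p under 0.01, the abundance filter, equal totals and a minimum effect of ln 2. Counts of lower copies alone moved more. The abundance filter left these copies out. It took the count from 2 to 0 in HS and from 1 to 0 in HRS on day 1. On day 11 it took HRS from 3 to 0. Equal totals took HRS on day 1 from 1 to 4, and all transcripts called lower there from 3790 to 6572. For the members named by rule, limma gave the same side of the threshold in 147 of 151 results and a weaker one in 4, and no called effect turned its sign under any alternative. Scaling to equal totals moved the median of all transcripts to -0.18 (HS, day 1), -0.14 (HRS, day 1) and 0.24 (HS, day 11), and the split over all transcripts in HS on day 1 from 4304 higher and 3746 lower to 2642 and 7607. In HRS against HS on day 11, limma called 0 of 29947 transcripts and the Wald test 1159, and in HR limma called 0 beside 172 and 269. The causes were not tested. With 3 plants per group the size of the SE limits what can be called. The median SE of the TIP copies was 0.776 in HS on day 11 and 1.01 in HRS against HS on that day.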

Other observations

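Control leaves of the 2 days also stood at different levels, which belong to no test because each day was normalised and fitted apart. The median ratio of day 11 to day 1 control level was 1.56 over the 21 copies, with 19 above 1, beside 0.95 over the 28719 transcripts with all estimates. The summed level of the mesophyll markers in control also differed, at 516862 to 553822 on day 1 and 1202817 to 1405604 on day 11. The ratio was 1.46 over the PIP1, 1.41 over the PIP2 and 3.98 over the TIP copies. TIP1-3 AUR62041570 stood at 261 in control on day 1 and at 4231 on day 11, a ratio of 16.2. TIP2-1 AUR62022163 went from 31.9 to 303 (9.53) and AUR62031871 from 36.2 to 353 (9.74), so the day 1 level of AUR62022163 in HS, 304, was close to its control level of day 11.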
